A study of Rattus norvegicus with 43 samples.

Results

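The late phase of culture was described by comparing rat primary hepatocytes (RPH) 48 h after seeding with RPH 24 h after seeding. The 17 arrays labelled with these times (8 at 48 h and 9 at 24 h, of 43 arrays in all) were the technical arrays of 6 of the 15 samples of the series, 1 culture sample from each of 3 rats at each time. The animals were male Sprague Dawley rats, untreated, whose liver, freshly isolated cells (0 h) and cells after 4 h on the plate were also measured. Cells were seeded on collagen in William's E medium containing insulin, transferrin and dexamethasone, with serum until 4 h and without it afterwards, so that both late times share the serum-free, dexamethasone-containing medium. RNA from each sample was hybridised to Affymetrix RG230-2 arrays, which hold several oligonucleotide probes per transcript, grouped in probe sets, and the values are MAS5 signals in arbitrary units. Each rat gave a sample at both times, and the number of 3 rats limits the precision of every value.

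Hepatocytes in the liver keep their specialised functions, such as the synthesis of plasma proteins and the oxidation of drugs by cytochrome P450 enzymes, under the influence of hormones, neighbouring cells and a soft matrix. On a stiff collagen surface they flatten, assemble actin fibres and lose much of this programme. Preparations of hepatocytes also carry some non-parenchymal cells, among them Kupffer cells, which are the resident macrophages of the liver, and the endothelial cells that line the sinusoids.

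Expression still moved in both directions between 24 h and 48 h. Among 53 gene lists of unequal size, the Kupffer cell list (17 of 27 tested) and the plasma protein list (16 of 45) had the most genes called lower. The extracellular matrix list (16 of 65) and the S phase and mitosis list (14 of 75) had the most called higher. By share of members, MHC class II (75.0% lower) and annexins and S100 proteins (29.4% higher) came first. Of 10643 genes tested, 918 (8.63%) differed at an adjusted p under 0.05 by limma with the rat as a block. Of these, 553 (5.20% of the genes tested) were higher at 48 h and 365 (3.43%) were lower. The list counts below are to be read against these shares. The direction was shared by all 3 rats for all 918. This count is of genes selected by p from the same values, so it is no separate support for the calls. A change of more than 2-fold was seen in 252 of the genes that rose and 155 of those that fell, and one of more than 4-fold in 50 and 36 genes. An unadjusted limma p under 0.05 was seen in 2672 of the 10643 genes tested, against which the unadjusted counts below are to be read. The median log2 fold change over all genes tested was 0.01, and each fold change below is 48 h minus 24 h on the log2 scale, with its standard error.

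The count of called genes depended on every rat. It was 34 without rat 1 (11 higher, 23 lower), 328 without rat 2 and 268 without rat 3, and between 204 (without rat 1 at 24 h) and 510 (without rat 3 at 48 h) when 1 of the 6 late samples was left out. All 918 genes kept their direction without each rat, which follows from the direction shared by the 3 rats and is no separate check. Of the 918, 28 were called in each of those 3 fits. Among the 157 called genes named by the rule given with the methods, 18 were called in all 3, namely Cyp2e1, Cyp1a2, Cyp3a9, Serpina6, Serpina3c, Agt, C4bpb, Nfkbiz, Clec4f, Cd5l, Adgre1, Cxcl13, Ackr3, Lyve1, Fcgr2b, Fabp4, Col4a5 and Sox4. Every other called named gene lost its call in at least 1 of them. Without the rat as a block 331 genes were called, 199 higher and 132 lower.

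**Figure D1:**
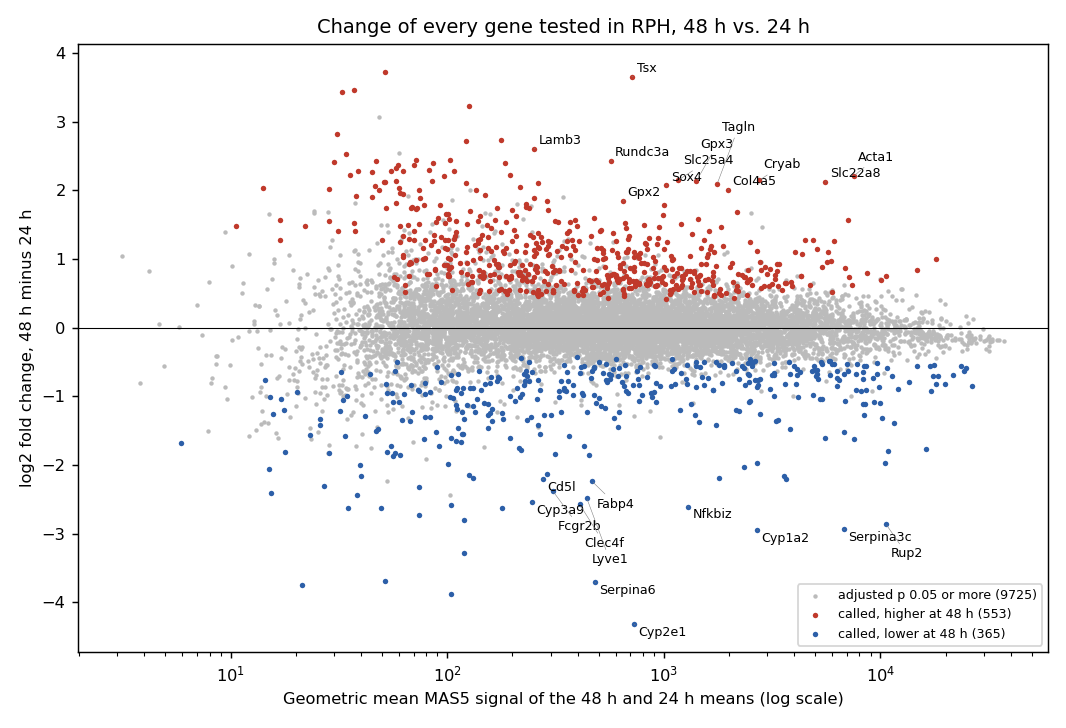
Each point is 1 of the 10643 genes tested, at the geometric mean of its 48 h and 24 h MAS5 signals (x axis, log scale) and its log2 fold change, 48 h minus 24 h (y axis). The 553 genes called higher at 48 h are red, the 365 called lower are blue, and the 12 largest rises and falls among the brighter called genes are named, from Tsx at 3.66 to Cyp2e1 at -4.32.

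The late step was smaller than the step before it in each rat. The mean absolute log2 difference over the genes tested was 0.39, 0.38 and 0.36 in rats 1, 2 and 3 for 48 h vs. 24 h, and 0.64, 0.71 and 0.78 in the same rats for 24 h vs. 4 h. Differences over 2-fold made up 7.40%, 7.58% and 6.44% of genes in the late step, against 18.9%, 22.3% and 26.6% in the earlier one. The steps share the 24 h samples and span unequal times, and with 3 pairs an exact two-sided test cannot go below p = 0.25, so no test was made.

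The samples were close to each other in their technical properties. Technical arrays of 1 sample correlated at r of 0.971 to 0.983 over 16 pairs, arrays of different rats in 1 group at 0.949 to 0.968, and arrays of 48 h against arrays of 24 h at 0.919 to 0.960. The median array signal ranged from 86.1 to 112 at 48 h and from 84.4 to 111 at 24 h. The 3′ to 5′ signal ratio of beta-actin, which rises as RNA is degraded, lay between 1.95 and 2.46 at 48 h and between 2.24 and 2.50 at 24 h, and the groups overlapped. The hepatocyte label was checked on 9 measured marker genes, all of which were above the median gene at 48 h. Their summed signal was 173920 to 202550 at 48 h and 211670 to 264890 at 24 h, without overlap, and 1 of the 9, fibrinogen alpha chain (Fga), was called lower.

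Several cytochrome P450 enzymes that oxidise drugs and retinoids fell steeply. Cyp2e1, which oxidises ethanol and small solvents, had signals of 196, 116 and 191 at 48 h, against 4104, 1756 and 4831 at 24 h in rats 1, 2 and 3, the order used throughout (log2 fold change -4.32 ± 0.18, adjusted p = 0.000622). Every 48 h value was below every 24 h value, a 20-fold fall, after a mean of 35437 in liver. Cyp1a2, which metabolises caffeine, had 753, 937 and 1291 at 48 h, against 6954, 5189.8 and 11609.8 at 24 h (log2 fold change -2.95 ± 0.18, adjusted p = 0.000903). Cyp3a9 had 104, 142 and 71.6 at 48 h, against 589, 1017 and 351 at 24 h (log2 fold change -2.54 ± 0.16, adjusted p = 0.000903). These enzymes were lower in each rat with no overlap. Cyp3a2, a male-specific drug-metabolising form in the rat, had 4671, 1613 and 4299 at 48 h, against 11920.0, 6665 and 11563 at 24 h (log2 fold change -1.61 ± 0.22, adjusted p = 0.00894), and Cyp26b1, which degrades retinoic acid, had 69.7, 46 and 117 at 48 h, against 777, 159 and 717 at 24 h (log2 fold change -2.63 ± 0.34, adjusted p = 0.00751). Of the 36 P450 system genes measured, 13 fell, 2 rose and 21 were not called, with a median log2 fold change of -0.19, against 3.43% of all genes that fell and 5.20% that rose.

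Secreted liver proteins formed the next group. Serpina6, corticosteroid-binding globulin, had 95.4, 114 and 215 at 48 h, against 1826, 1133 and 2547 at 24 h (log2 fold change -3.71 ± 0.21, adjusted p = 0.000767). Serpina3c, a serine protease inhibitor, had 1421, 2764 and 3699 at 48 h, against 16996, 16294 and 23611 at 24 h (log2 fold change -2.94 ± 0.24, adjusted p = 0.00236), and afamin (Afm), a vitamin E-binding protein, had 1450.3, 1626 and 2025 at 48 h, against 7599.9, 6081 and 9357 at 24 h (log2 fold change -2.17 ± 0.16, adjusted p = 0.00166). In all 3 genes the times did not overlap. Of 45 plasma and carrier proteins 16 fell (35.6%) and 3 rose (6.67%), against 3.43% and 5.20% of all genes, with a median of -0.34. Among 40 coagulation and complement genes 13 fell and 2 rose, led by C4bpb, the beta chain of C4b-binding protein, a complement inhibitor, at 1846, 977 and 1399 at 48 h, against 5983, 3994 and 6289 at 24 h. The fibrinogen beta chain (Fgb) changed by -1.39 ± 0.15 (adjusted p = 0.00456). The rises in the list included Cd46, a membrane protein that protects cells from complement, at 1.30 ± 0.17 (adjusted p = 0.00782).

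The brightest plasma protein genes were not among those called. Albumin (Alb) had 30005, 35299 and 24575 at 48 h, against 25942, 36160.1 and 38419 at 24 h, and its log2 fold change was -0.16 ± 0.19 (adjusted p = 0.669). Transthyretin (Ttr) and Apoa1 had changes of -0.23 ± 0.15 (adjusted p = 0.39) and -0.17 ± 0.16 (adjusted p = 0.554), and the groups overlapped for all 3 genes. These genes lie at the upper end of the signal range, where the response of an array can flatten, and whether that limited the differences was not tested.

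Apolipoprotein and lipoprotein genes were lower in 8 of 26 (30.8%) and higher in 2 (7.69%), against 3.43% and 5.20% of all genes. Apoa2 had 4308, 8315 and 7536 at 48 h, against 16595, 17538 and 14286 at 24 h (log2 fold change -1.32 ± 0.24, adjusted p = 0.0211), and the cholesterol-esterifying plasma enzyme Lcat had 3134, 3562 and 4457 at 48 h, against 6206, 6834 and 10256 at 24 h. Cd36, a fatty acid receptor also found on endothelium, was higher in each rat (1458, 474 and 1929 at 48 h, against 459, 263 and 1215 at 24 h) while the groups overlapped. The growth hormone and IGF list had 5 genes lower and 1 higher of 25. Igf1, the hormone that mediates much of the action of growth hormone, had 5699, 7563 and 5675 at 48 h, against 11853, 12133 and 11409 at 24 h (log2 fold change -0.92 ± 0.18, adjusted p = 0.026), and Cish, a growth hormone-induced feedback inhibitor, had 87.3, 72.5 and 65.5 at 48 h, against 207, 124 and 169 at 24 h. Angiotensinogen (Agt), the precursor of angiotensin, had 5974, 5596 and 5869 at 48 h, against 19924, 17415 and 23708 at 24 h (log2 fold change -1.80 ± 0.12, adjusted p = 0.000935). Igf1 and Agt remained far above the median gene at 48 h, whose signal was 554, whereas Cish was below it at both times. Another probe set of Cish gave -0.79 ± 0.42 and was not called.

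Transcription factors of the hepatocyte were mostly not called, like most genes tested. Of 44 nuclear receptors and liver transcription factors 1 rose and 1 fell, with a median of 0.00. That is 2.27% each, against 5.20% higher and 3.43% lower over all genes. The gene that rose was Esrrg, an orphan nuclear receptor, at 658, 674 and 426 at 48 h, against 291, 374 and 167 at 24 h (log2 fold change 1.13 ± 0.16, adjusted p = 0.00944), and the gene that fell was Cebpg, a bZIP factor, at -0.52 ± 0.12 (adjusted p = 0.044). Hnf4a, a central regulator of hepatocyte genes, had 5552, 4467 and 5896 at 48 h, against 7048, 7114 and 7593 at 24 h and did not pass the threshold (log2 fold change -0.46 ± 0.13, adjusted p = 0.0843). Other probe sets of Hnf4a gave 0.11 ± 0.16 and -0.0028 ± 0.23, and neither was called. Another probe set of Esrrg gave 0.67 ± 0.24 and another of Cebpg gave -0.415 ± 0.22, and neither was called. Cebpa had 0.07 ± 0.23 (adjusted p = 0.873) with overlapping groups, and Cyp7a1, the rate-limiting enzyme of bile acid synthesis, had 681, 286 and 739 at 48 h, against 531, 1733 and 616 at 24 h with no consistent direction. None of 16 bile acid synthesis genes was called by limma. Of the 16, 4 had an unadjusted p under 0.05, against 2672 of all 10643 genes tested.

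Acute phase and NF-kB genes, which respond to injury and cytokines, were lower in 13 of 47 and higher in 1, with a median of -0.46. Nfkbiz, an NF-kB cofactor, had 455, 463 and 676 at 48 h, against 3060.2, 2983 and 3539 at 24 h (log2 fold change -2.61 ± 0.13, adjusted p = 0.000622), and its mean signals were 777 in liver, 1750.1 at 0 h, 6422 at 4 h, 3185 at 24 h and 522 at 48 h. The mean at 48 h was thus below that of liver. The liver values were 1992, 765 and 307, so the ranges overlapped and rat 3 was higher at 48 h. Cxcl1, a neutrophil chemokine, had 719, 987 and 2197 at 48 h, against 5254, 3035 and 6591 at 24 h, and its 48 h values were all above the liver mean of 267. Hepcidin (Hamp), the hormone that limits iron export, had 14814, 10336 and 4459 at 48 h, against 30943, 28297 and 30517 at 24 h (log2 fold change -1.76 ± 0.30, adjusted p = 0.0173). Its spread between rats was wide at 48 h and narrow at 24 h, without overlap. The single rise was Ccl2, a monocyte chemokine, at 195, 257 and 593 at 48 h, against 57.4, 93.9 and 147 at 24 h (log2 fold change 1.74 ± 0.21, adjusted p = 0.00637).

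Iron genes were lower in 6 of 25 (24.0%) and higher in 1 (4.0%), against 3.43% and 5.20% of all genes. Beside Hamp these were led by metallothionein Mt2A at 4037, 4083 and 4856 at 48 h, against 16767, 7509 and 18767 at 24 h, the iron importer Slc11a2 at 919.7, 841 and 958 at 48 h, against 2284, 2117 and 2663 at 24 h and the transferrin receptor Tfrc at 3816, 4639 and 6058 at 48 h, against 9718, 9642 and 10485 at 24 h. All 4 were lower in each rat and without overlap. Another probe set of Slc11a2 gave -0.47 ± 0.19 and was not called. The chemokine and cytokine list had 7 of 35 lower and 3 higher. Ackr3, a scavenging chemokine receptor, had 31.4, 5.56 and 16.9 at 48 h, against 242, 104 and 251 at 24 h (log2 fold change -3.69 ± 0.24, adjusted p = 0.000906), and Cxcl13, a B cell attractant, had 14.6, 10.3 and 12 at 48 h, against 49.6, 58.6 and 74.9 at 24 h (log2 fold change -2.31 ± 0.22, adjusted p = 0.00323). Both lie near the lower end of the scale at 48 h, and with 32 units added to each signal their changes were -2.12 and -0.85. Tnfsf10, the death ligand TRAIL, was among the genes that rose (296, 157 and 287 at 48 h, against 60.2, 45.2 and 42.3 at 24 h).

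Most of the measured Kupffer cell genes fell. Clec4f, a lectin of rodent Kupffer cells, had 207, 135 and 169 at 48 h, against 1031, 934 and 1033 at 24 h (log2 fold change -2.58 ± 0.12, adjusted p = 0.000622), with no overlap and little spread at 24 h. Cd5l, a macrophage-secreted protein, had 168, 87.8 and 143 at 48 h, against 647, 519.6 and 619.8 at 24 h, and Adgre1, the antigen F4/80, had 30.3, 10.5 and 21.7 at 48 h, against 105, 60.8 and 95.7 at 24 h, a change of -2.16 that became -1.17 with 32 units added. Another probe set of Cd5l gave -1.15 ± 0.41 and was not called. Of 27 Kupffer cell and macrophage genes tested, 17 fell, none rose and 10 were not called, with a median of -0.96. The called members ranged from -2.58 (Clec4f) to -0.73 (Cd53). Without rat 1, 2 of the 27 were called lower, without rat 2, 11, and without rat 3, 10, while 26, 24 and 25 had a negative fold change. Aif1 fell by its brightest probe set (log2 fold change -2.44 ± 0.37, adjusted p = 0.0113, and -1.24 with 32 units added), but its other probe set gave 0.15 ± 0.59.

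The signal of the 8 measured defining Kupffer markers summed to 1643 to 2184 at 48 h and 3976 to 5842 at 24 h, against 15848 to 21490 in liver, and all 8 were called lower. In these bulk samples, fewer cells of a type and less RNA per cell cannot be told apart. MHC class II genes, which present antigen on macrophages and other immune cells, were lower in 6 of 8. Cd74, the invariant chain, had 228, 229 and 326 at 48 h, against 443, 444 and 591 at 24 h (log2 fold change -0.92 ± 0.14, adjusted p = 0.0107), and RT1-Ba and RT1-Da changed by -1.01 and -0.96. Other probe sets of RT1-Ba gave -0.89 ± 0.35 and -0.11 ± 0.37, and neither was called. RT1-Db1 changed by -1.01, and by -0.67 without rat 2. Genes of this family are similar in sequence, so that the share of each in the signal is uncertain.

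Sinusoidal endothelial genes were lower in 10 of 27 and higher in 1, the Cd36 named above. Lyve1, a hyaluronan receptor of sinusoidal and lymphatic endothelium, had 156, 129 and 324 at 48 h, against 999, 838 and 1349 at 24 h (log2 fold change -2.48 ± 0.16, adjusted p = 0.000903). Fcgr2b, an inhibitory Fc receptor of these cells, had 136, 97.2 and 184 at 48 h, against 849.6, 417 and 969 at 24 h (log2 fold change -2.38 ± 0.13, adjusted p = 0.000757), and the scavenger receptor Stab2 had 46.7, 24 and 65.3 at 48 h, against 131, 66.3 and 143 at 24 h. Each was lower in all rats without overlap. The 7 measured defining endothelial markers summed to 257 to 590.3 at 48 h and 1090.2 to 1752.5 at 24 h, against 9990.2 to 11670 in liver, and 3 of the 7 were called lower. Fabp4, a fatty acid-binding protein of fat cells, macrophages and capillary endothelium, had 301, 123 and 267 at 48 h, against 1336, 630.3 and 1223 at 24 h (log2 fold change -2.24 ± 0.17, adjusted p = 0.00166). Its mean in liver was 60.8, far below both culture times.

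Stellate cell and fibroblast genes did not share this fall. Of 27 tested, 3 rose and 2 fell, and the 9 defining markers summed to 1049 to 2142 at 48 h and 640.2 to 1213 at 24 h, with overlapping ranges and 1 of the 9 called. That gene was Col1a1, the alpha-1 chain of type I collagen, at 190.1, 84.9 and 184 at 48 h, against 116, 50.3 and 61.9 at 24 h (log2 fold change 1.01 ± 0.24, adjusted p = 0.0448), and the values of different rats overlapped. Krt19, a keratin of bile duct cells, had 31, 12.1 and 51.4 at 48 h, against 9.37, 12.2 and 18.7 at 24 h and was not called (log2 fold change 1.06 ± 0.37, adjusted p = 0.132, and 0.37 with 32 units added). The 3 measured duct markers summed to 2204 to 3133 at 48 h and 1626 to 1904 at 24 h, without overlap. In liver they summed to 994 to 1032, below both culture times, whereas Krt19 had means of 153 in liver and 26.8 at 48 h. At 48 h, 2 of the 3 markers were below the median gene. None of the 3 was called by limma, and 2 had an unadjusted p under 0.05. Of the 7 genes tested in the wider bile duct list, 2 rose and none fell. These were Ggt1, gamma-glutamyl transferase, at 478, 351 and 677 at 48 h, against 142, 118 and 132 at 24 h (log2 fold change 1.89 ± 0.39, adjusted p = 0.0288), and Tm4sf4, a membrane protein, at 12072, 11742 and 12768 at 48 h, against 3285, 3885 and 5389.9 at 24 h (log2 fold change 1.57 ± 0.21, adjusted p = 0.00791). The summed signal of the list, to which Tm4sf4 gave the most, was 14678 to 17192 at 48 h and 5833 to 8370 at 24 h, without overlap.

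**Figure D2:**
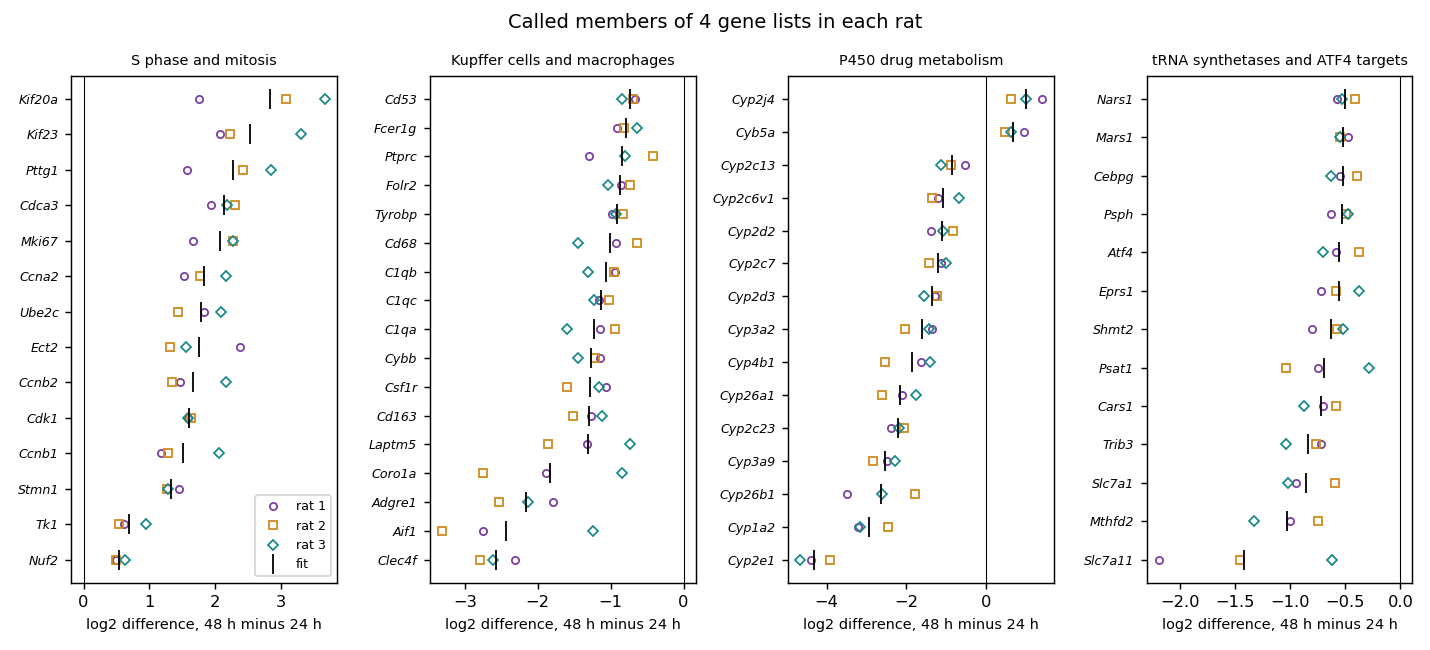
Log2 difference, 48 h minus 24 h (x axis), of each called member of 4 gene lists (rows), with rats 1 to 3 as circles, squares and diamonds and the fitted fold change as a bar. Every point of the S phase and mitosis panel lies above 0 and every point of the Kupffer cell and ATF4 panels is negative, while Cyp2j4 and Cyb5a are the P450 system genes that rose.

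Some genes of cell division rose, while most of the list was not called. Kif20a, a kinesin of the dividing cell's midzone, had 67.7, 87.6 and 95.8 at 48 h, against 20.1, 10.5 and 7.55 at 24 h (log2 fold change 2.83 ± 0.51, adjusted p = 0.0198), and Kif23, another midzone kinesin, had 76.5, 83 and 85.5 at 48 h, against 18.2, 17.8 and 8.72 at 24 h (log2 fold change 2.53 ± 0.32, adjusted p = 0.00706). Cdca3, a trigger of mitotic entry, had 148, 177 and 219 at 48 h, against 38.7, 36.1 and 48.3 at 24 h (log2 fold change 2.14 ± 0.28, adjusted p = 0.00775). In each gene the lowest 48 h value was above the highest 24 h value. Pttg1, securin, which restrains the separation of chromatids, had 78.5, 137 and 164 at 48 h, against 26.4, 25.8 and 22.9 at 24 h (log2 fold change 2.27 ± 0.50, adjusted p = 0.0374). Stmn1, a protein that destabilises microtubules and is most abundant in dividing cells, was brighter, at 729.5, 763 and 712 at 48 h, against 267, 318 and 294 at 24 h (log2 fold change 1.33 ± 0.16, adjusted p = 0.00637).

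Of 75 S phase and mitosis genes tested, 14 rose, none fell and 61 were not called, with a median of 0.38, and 27 of the 28 with an unadjusted p under 0.05 were higher. Without rat 1 none of the 75 was called higher, without rat 2, 3, and without rat 3, 6, while 58, 60 and 56 had a positive fold change. Signals were low, with a mean under 32 at 24 h in 6 of the 14, and with 32 units added the changes of Kif20a, Kif23 and Pttg1 were 1.34, 1.21 and 1.40. The called members were mostly genes of mitosis. Tk1, the thymidine kinase of S phase, was called at 0.70 ± 0.13 (adjusted p = 0.0209), whereas no MCM replicative helicase gene of the list was called and neither was Pcna, the sliding clamp of DNA polymerase, at -0.06 ± 0.13. Mean signals at 48 h were above the liver mean for Kif20a (82.8, against 57.6 in liver) and below it for Kif23 (81.6, against 86.8), Cdca3 (179, against 266), Pttg1 (121, against 263) and Stmn1 (735, against 878). The rats did not share this direction for Kif20a, Kif23 and Cdca3. Their liver values were 109, 66.7 and 26.2 for Kif20a, 105, 123 and 50.4 for Kif23, and 446, 263 and 160 for Cdca3. Which cells carried these transcripts was not tested. In the G1 control and p53 list 2 genes rose (5.41%) and 1 fell (2.70%) of 37, close to the 5.20% and 3.43% of all genes. Among those that rose was the G1 kinase Cdk4, at 2272, 2202 and 2156 at 48 h, against 1445, 1519.7 and 1538 at 24 h.

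Promoters of called division genes are shown because the list is known for sharing short promoter elements. The 150 bases before the RefSeq start (GRCr8, gene strand, 5′ to 3′) follow for 5 of the 12 called members with a promoter entry, chosen because these windows held both motifs searched. Capitals mark the cell cycle homology region TTTGAA and the CCAAT box CCAAT on either strand, and 1 match of each overlaps in Mki67.
Mki67 (chr1:199952594-199952743, minus strand): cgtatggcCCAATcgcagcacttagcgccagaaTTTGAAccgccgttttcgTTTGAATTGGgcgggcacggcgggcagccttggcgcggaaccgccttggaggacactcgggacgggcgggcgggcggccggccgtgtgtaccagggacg
Ccnb2 (chr8:79981659-79981808, minus strand): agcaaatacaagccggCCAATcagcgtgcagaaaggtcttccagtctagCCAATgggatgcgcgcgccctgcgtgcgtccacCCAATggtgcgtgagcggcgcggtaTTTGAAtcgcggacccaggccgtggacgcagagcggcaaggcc
Cdk1 (chr20:19265143-19265292, plus strand): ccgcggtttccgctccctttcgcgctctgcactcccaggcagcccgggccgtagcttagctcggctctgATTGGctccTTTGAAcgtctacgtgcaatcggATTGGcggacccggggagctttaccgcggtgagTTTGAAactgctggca
Kif23 (chr8:71320585-71320734, minus strand): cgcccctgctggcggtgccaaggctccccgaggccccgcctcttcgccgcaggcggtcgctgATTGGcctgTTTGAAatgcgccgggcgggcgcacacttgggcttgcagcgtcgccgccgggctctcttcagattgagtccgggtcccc
Pttg1 (chr10:28406327-28406476, minus strand): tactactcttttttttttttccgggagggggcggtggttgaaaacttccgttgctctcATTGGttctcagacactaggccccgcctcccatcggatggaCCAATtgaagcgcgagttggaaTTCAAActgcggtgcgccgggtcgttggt
Mki67 encodes the proliferation antigen Ki-67, Ccnb2 cyclin B2 and Cdk1 the kinase that drives entry into mitosis. These 3 were called higher at 2.07, 1.66 and 1.60. In the 250 bases before the start TTTGAA was found in 6 of the 12 called members, 22 of the 69 list genes with an entry and 16.03% of 27457 promoters. CCAAT was found in 10 of the 12, 49 of the 69 and 34.3%. A match is a description of letters and not a bound site.

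Genes of actin fibres and contractile proteins rose in 8 of 57 and fell in 2. Acta1, skeletal muscle alpha-actin, had 15835, 20239 and 13078 at 48 h, against 2054, 4563 and 4567 at 24 h (log2 fold change 2.20 ± 0.36, adjusted p = 0.0147), and its mean signals were 21.9 in liver, 13.8 at 0 h, 27.9 at 4 h, 3498 at 24 h and 16123 at 48 h. Tagln, transgelin, an actin-binding protein of smooth muscle, had 3453, 5359 and 2591 at 48 h, against 423, 1757 and 837 at 24 h (log2 fold change 2.09 ± 0.31, adjusted p = 0.0107). Tpm2, a tropomyosin, had 338, 113 and 199.9 at 48 h, against 48.7, 21.8 and 49.4 at 24 h (log2 fold change 2.40 ± 0.31, adjusted p = 0.00756). All were near the floor of the scale at 4 h (4 h means of 27.9, 4.44 and 4.92), and higher at 24 h. Actins and tropomyosins are similar to their paralogs, and cross-hybridisation was not tested. Cryab, a small heat shock protein, had 4528, 7984 and 5355 at 48 h, against 852, 2358 and 1118 at 24 h (log2 fold change 2.14 ± 0.32, adjusted p = 0.011).

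Extracellular matrix genes had the highest number of rises among the 53 lists, 16 of 65, with 1 fall and a median of 0.33. Col4a5, a basement membrane collagen chain, had 3453, 4921 and 3683 at 48 h, against 804, 1273 and 934 at 24 h (log2 fold change 2.01 ± 0.13, adjusted p = 0.000903). Lamb3, the beta chain of epithelial laminin-332, had 637, 526 and 719 at 48 h, against 118, 61.4 and 147 at 24 h (log2 fold change 2.61 ± 0.46, adjusted p = 0.0191), and Lamb2, another laminin chain, had 72.9, 152 and 112 at 48 h, against 9.34, 13 and 8.2 at 24 h (log2 fold change 3.43 ± 0.69, adjusted p = 0.0274). None of the 3 overlapped between the times, and with 32 units added the change of the dim Lamb2 was 1.64. The fall was that of Mgp, matrix Gla protein, at -0.81 ± 0.19 (adjusted p = 0.0493). The stellate cell marker sum given above was higher at 48 h in its range, and its part in these rises was not tested.

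Several calcium-binding proteins of the membrane and cytoskeleton rose. Of 17 annexins and S100 proteins 5 rose and none fell, among them Anxa5 at 6935, 9596 and 8874 at 48 h, against 2647, 4559 and 4940.4 at 24 h and S100a4 at 139, 215 and 204 at 48 h, against 25.3, 65.3 and 30.8 at 24 h. Integrins and focal adhesion genes rose in 3 of 45 (6.67%), close to the 5.20% of all genes, with Itgb4, an integrin chain of hemidesmosomes, at 259, 199 and 282 at 48 h, against 86.9, 104 and 103 at 24 h (log2 fold change 1.32 ± 0.20, adjusted p = 0.011), and Cav1, caveolin, at 1.04 ± 0.24 (adjusted p = 0.0426). The 31 YAP and TEAD targets had 4 rises (12.9%) and 1 fall (3.23%). Myof, a membrane repair protein, led the rises at 1.25 ± 0.27 (adjusted p = 0.0343). Tgfb2, the ligand, had 231, 206 and 179.7 at 48 h, against 98.1, 81.3 and 86.6 at 24 h. In the TGF-beta and activin list, 4 of 44 rose and 4 fell (9.09% each, against 5.20% and 3.43% of all genes). Inhbb, the beta-B subunit of activin, had 5.36, 5 and 7.4 at 48 h, against 127, 30.1 and 127 at 24 h (log2 fold change -3.75 ± 0.34, adjusted p = 0.0029), and with 32 units added it changed by -1.59.

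Genes found in bile duct cells or progenitors were among the gains. Sox4, a transcription factor of developing ducts, had 1393, 2314 and 2881 at 48 h, against 306, 617 and 663 at 24 h (log2 fold change 2.07 ± 0.20, adjusted p = 0.00323), with no overlap between the times. Jag1, a Notch ligand, had 119, 57 and 189 at 48 h, against 24.3, 12.5 and 27.2 at 24 h and Cd24, a progenitor surface protein, had 89, 197 and 103 at 48 h, against 16.6, 48.1 and 26.7 at 24 h, with 24 h values under 50 in both. With 32 units added the changes of Jag1 and Cd24 were 1.39 and 1.33. Of 23 keratin and progenitor genes 4 rose and 1 fell. The bile duct marker sums given above were higher in the same samples, and their part in these rises was not tested. Krt18, a keratin of hepatocytes, had 22791, 27142 and 22104 at 48 h, against 22000.3, 27091 and 29887 at 24 h and was not called.

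Fatty acid oxidation genes rose in 9 of 52 and fell in none, with a median of 0.38. Vnn1, a pantetheinase and known target of PPAR-alpha, had 3463, 2486 and 3333 at 48 h, against 1121, 896 and 1339 at 24 h (log2 fold change 1.47 ± 0.13, adjusted p = 0.0029). Ehhadh, a peroxisomal oxidation enzyme, had 689, 653 and 999 at 48 h, against 304, 291 and 521 at 24 h, and Decr1, an enzyme of unsaturated fatty acid oxidation, had 4348, 4357 and 5059 at 48 h, against 2079.7, 2058 and 3252 at 24 h. Each was higher in all rats without overlap. The mean signals of Ehhadh were 4482 in liver, 5459 at 0 h, 3057 at 4 h, 359 at 24 h and 766 at 48 h, so that the 48 h level remained below that of liver. The 27 cholesterol genes had 1 fall (3.70%, close to the 3.43% of all genes) and no rise. None of 68 oxidative phosphorylation genes was called by limma or had an unadjusted p under 0.05.

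Several other liver enzymes and transporters were higher at 48 h after being lower at 24 h than at 4 h. Slc22a8, an organic anion transporter, had 9776, 15271 and 10443 at 48 h, against 1552, 3771 and 3234 at 24 h (log2 fold change 2.12 ± 0.19, adjusted p = 0.0029), and its means were 7538 in liver, 7999 at 0 h, 5468 at 4 h, 2665 at 24 h and 11595 at 48 h. Fmo1, a flavin-containing monooxygenase, had 1181, 825 and 1351 at 48 h, against 401, 458 and 450.02 at 24 h (log2 fold change 1.33 ± 0.18, adjusted p = 0.00813), with means of 6806 in liver, 8374 at 0 h, 5255 at 4 h, 436 at 24 h and 1096 at 48 h. Bhmt, which methylates homocysteine, had 5409, 5359.5 and 11807 at 48 h, against 2003, 3464 and 3485 at 24 h (log2 fold change 1.27 ± 0.22, adjusted p = 0.0177), and 20735 in liver. The mean of Slc22a8 at 48 h lay above its liver mean, and those of Fmo1 and Bhmt lay below theirs. Pck1, the gluconeogenic enzyme, had 665, 465 and 542 at 48 h, against 178, 230.0 and 167 at 24 h (log2 fold change 1.54 ± 0.33, adjusted p = 0.0353), and its liver mean was 33352. Of 67 urea cycle and amino acid genes 6 rose (8.96%) and 4 fell (5.97%). Phase II conjugation genes rose in 8 of 48 (16.7%) and fell in 3 (6.25%). Transporters rose in 4 of 27 (14.8%) and fell in 1 (3.70%). Over all genes 5.20% rose and 3.43% fell. The 48 h vs. 24 h and 24 h vs. 4 h differences share the 24 h samples, so each was given side by side only.

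**Figure D3:**
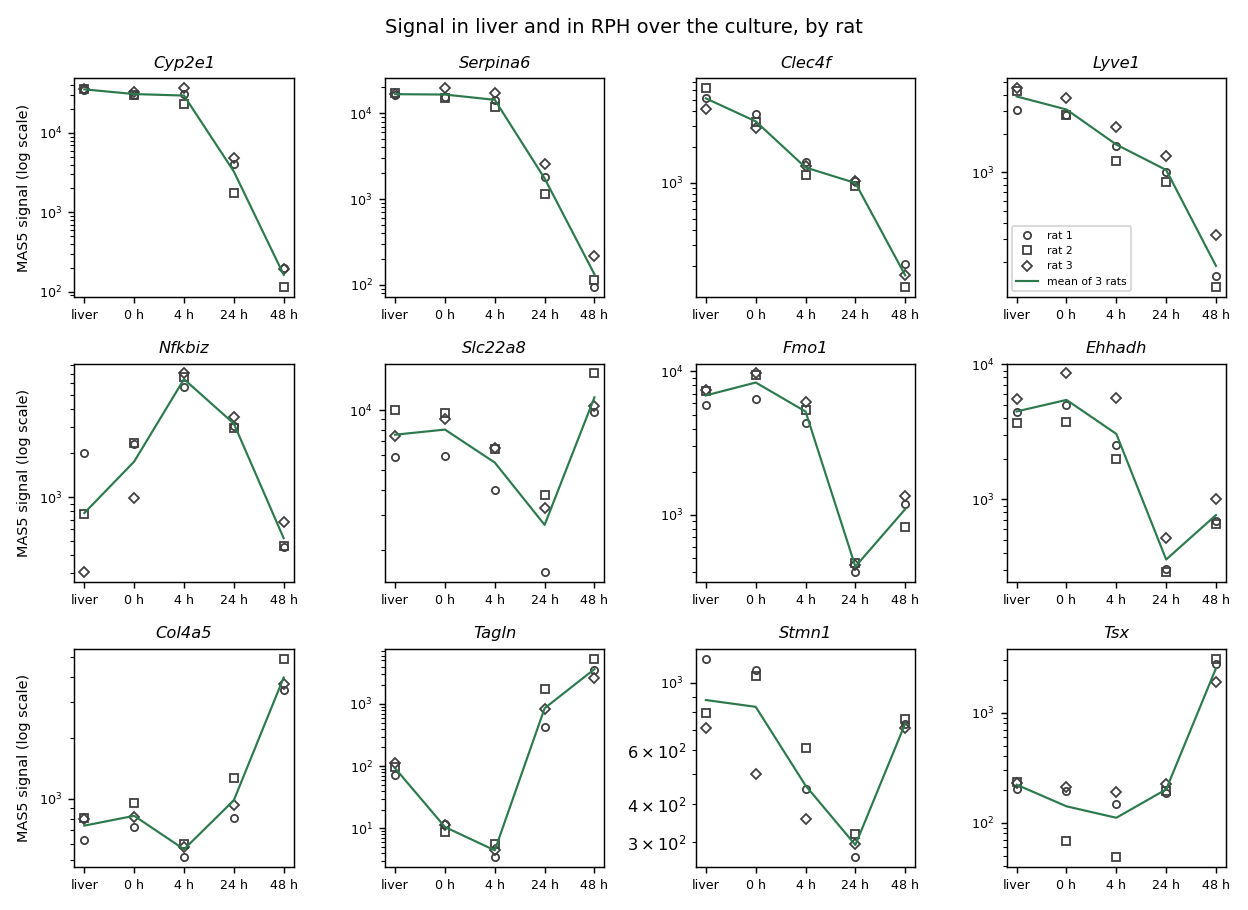
MAS5 signal (y axis, log scale) of 12 genes in liver and in RPH at 0, 4, 24 and 48 h (x axis), with each rat as a point and the mean of 3 rats as a line. Cyp2e1, Serpina6, Clec4f and Lyve1 kept falling to 48 h, Slc22a8, Fmo1 and Ehhadh turned upward after 24 h, and Col4a5, Tagln and Tsx had their highest means at 48 h.

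Several genes of amino acid supply and ribosome biogenesis fell. Of 49 tRNA synthetases and ATF4 targets 13 fell and none rose, with a median of -0.41. Slc7a11, the cystine importer, had 135, 133 and 232 at 48 h, against 618, 366 and 356 at 24 h (log2 fold change -1.42 ± 0.29, adjusted p = 0.0284), and Trib3, a pseudokinase, had 1424, 1024 and 1031 at 48 h, against 2345, 1743 and 2113 at 24 h (log2 fold change -0.84 ± 0.15, adjusted p = 0.0196). Slc7a1, an importer of cationic amino acids, had 760.0, 731 and 664 at 48 h, against 1465, 1105 and 1346 at 24 h (log2 fold change -0.85 ± 0.14, adjusted p = 0.0139). These 3 did not overlap between the times, whereas Mthfd2, a mitochondrial folate enzyme, fell in every rat with overlapping groups (333, 588 and 223 at 48 h, against 666, 986 and 559 at 24 h). Ribosome biogenesis genes fell in 7 of 95 (7.37%, against 3.43% of all genes) and rose in none. Of the 95, 37 had an unadjusted limma p under 0.05, all lower. The named members Rrp12, Taf1d, Sdad1 and Polr1b changed by -0.60, -0.68, -0.67 and -0.57. Endoplasmic reticulum chaperones fell in 4 of 39 (10.3%) and rose in none. Fkbp11 led these falls at 2264, 2038 and 2543 at 48 h, against 4083, 3802 and 4807 at 24 h. None of 40 cytosolic ribosomal protein genes was called or had an unadjusted p under 0.05.

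Promoters are shown for 3 called ATF4 list members that held the searched element TGATGNAA, which capitals mark on either strand, in the 150 bases before the start (GRCr8, gene strand, 5′ to 3′).
Trib3 (chr3:161275534-161275683, minus strand): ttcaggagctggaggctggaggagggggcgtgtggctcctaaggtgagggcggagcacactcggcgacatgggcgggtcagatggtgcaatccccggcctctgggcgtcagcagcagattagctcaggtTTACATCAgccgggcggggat
Slc7a1 (chr12:11664338-11664487, plus strand): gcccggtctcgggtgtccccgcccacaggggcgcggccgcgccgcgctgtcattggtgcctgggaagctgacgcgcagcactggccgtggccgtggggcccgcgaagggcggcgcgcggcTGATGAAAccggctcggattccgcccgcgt
Mars1 (chr7:65023754-65023903, minus strand): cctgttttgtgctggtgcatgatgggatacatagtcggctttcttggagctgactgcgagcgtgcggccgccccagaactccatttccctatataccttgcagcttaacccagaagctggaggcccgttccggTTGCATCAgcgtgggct
Mars1 encodes methionyl-tRNA synthetase and was lower at -0.52. The element lay in the 250 bases before the start of 4 of the 13 called members, 10 of 45 list genes with an entry and 3.27% of 27457 promoters.

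Interferon response genes rose in 7 of 54 and fell in 1. Gbp2, a GTPase induced by interferon, had 182, 179.8 and 157 at 48 h, against 59.3, 70.8 and 76.3 at 24 h (log2 fold change 1.34 ± 0.16, adjusted p = 0.00677), and Psmb9, an immunoproteasome subunit, had 1642, 1978 and 1111 at 48 h, against 676, 947 and 735 at 24 h (log2 fold change 0.98 ± 0.15, adjusted p = 0.0115). Both were higher in all rats without overlap. The fall was that of Ifitm1, a membrane protein that restricts viruses, at 449.6, 259.6 and 451 at 48 h, against 883, 820.3 and 1107 at 24 h. Promoters of 3 called genes that held the interferon-stimulated response element, searched as TTTC, any 2 bases and TTTC on either strand (capitals), follow, from the 150 bases before the start (GRCr8, gene strand).
Gbp2 (chr2:234005577-234005726, plus strand): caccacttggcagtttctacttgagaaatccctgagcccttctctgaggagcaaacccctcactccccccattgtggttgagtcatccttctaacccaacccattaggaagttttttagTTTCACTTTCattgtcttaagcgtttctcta
Oas1a (chr12:41330316-41330465, plus strand): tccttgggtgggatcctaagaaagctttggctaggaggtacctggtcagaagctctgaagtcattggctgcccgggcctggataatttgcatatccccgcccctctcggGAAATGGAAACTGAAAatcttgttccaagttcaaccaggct
Tapbp (chr20:4967878-4968027, minus strand): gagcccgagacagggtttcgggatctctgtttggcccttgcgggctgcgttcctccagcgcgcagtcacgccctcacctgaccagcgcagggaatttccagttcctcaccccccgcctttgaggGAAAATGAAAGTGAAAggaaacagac
Oas1a, an antiviral oligoadenylate synthetase, and Tapbp, the peptide-loading protein tapasin, changed by 0.95 and 0.83, and overlapping matches were merged in the capitals of both. The element lay in 5 of the 7 called members, 26 of 44 list genes with an entry and 3.29% of all promoters.

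NRF2 targets, which protect against oxidants, had 3 rises and 3 falls in 43 (6.98% each, against 5.20% and 3.43% of all genes), and 37 were not called. Gpx2, a glutathione peroxidase of epithelia, had 1099, 1156 and 1463 at 48 h, against 301, 219 and 610.3 at 24 h (log2 fold change 1.84 ± 0.21, adjusted p = 0.00567). Akr1b8, an aldose reductase, had 87.4, 12.8 and 68.7 at 48 h, against 322, 169 and 309 at 24 h (log2 fold change -2.59 ± 0.41, adjusted p = 0.0139), and Cbr1, a carbonyl reductase, had 1209, 1147 and 879 at 48 h, against 2816, 2621 and 3149 at 24 h. Gpx3, the secreted glutathione peroxidase, which was not in the list, had 2607, 2228 and 4410.2 at 48 h, against 491, 298 and 2096 at 24 h (log2 fold change 2.13 ± 0.47, adjusted p = 0.0377). None of the 4 overlapped between the times, although Gpx3 spread widely between rats. The antioxidant element TGACNNNGC is shown in capitals in the promoter of Gpx2 and that of Gstp1, a glutathione transferase that rose by 1.37.
Gpx2 (chr6:101230034-101230183, minus strand): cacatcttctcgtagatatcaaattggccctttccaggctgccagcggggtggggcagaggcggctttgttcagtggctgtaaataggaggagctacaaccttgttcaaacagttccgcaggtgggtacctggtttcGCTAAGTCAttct
Gstp1 (chr1:210769706-210769855, minus strand): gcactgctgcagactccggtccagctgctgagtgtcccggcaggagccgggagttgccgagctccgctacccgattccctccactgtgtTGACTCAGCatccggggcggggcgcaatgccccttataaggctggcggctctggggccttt
The element was found in the 250 bases of both and not in those of Gsta4, the other list gene called higher, in 7 of 38 list genes with an entry and in 10.2% of all promoters.

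The largest rise among the brighter genes was that of Tsx, a testis-specific X-linked gene, at 2751, 3099 and 1899 at 48 h, against 185, 195 and 225 at 24 h (log2 fold change 3.66 ± 0.45, adjusted p = 0.00677), a 12.6-fold difference without overlap. Its mean in liver was 221. Rundc3a had 1100.0, 1670.3 and 1241 at 48 h, against 233, 216 and 292 at 24 h (log2 fold change 2.42 ± 0.32, adjusted p = 0.00772), Slc25a4, the ADP/ATP carrier of muscle mitochondria, had 1893, 2179 and 3594 at 48 h, against 451, 401 and 940.5 at 24 h (log2 fold change 2.15 ± 0.19, adjusted p = 0.0029), and Ldhb, the lactate dehydrogenase subunit of heart, had 477, 629 and 549.5 at 48 h, against 137, 140.3 and 106 at 24 h (log2 fold change 2.11 ± 0.23, adjusted p = 0.00484). All were higher in each rat with no overlap. Rup2, a rat urinary protein, had 3484, 5806 and 3002 at 48 h, against 30395, 27078 and 28270.1 at 24 h (log2 fold change -2.86 ± 0.24, adjusted p = 0.0023), and of its 3 other probe sets 2 fell (-4.07 ± 0.20 and -4.30 ± 0.15) and 1 was not called (0.30 ± 0.32). Rup2 belongs to a multigene family, so that the share of each copy in the signal is uncertain. Lysosome and autophagy genes rose in 8 of 60 and fell in 2, with the cathepsins Ctse and Ctss at 1.54 and -0.91.

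**Figure D4:**
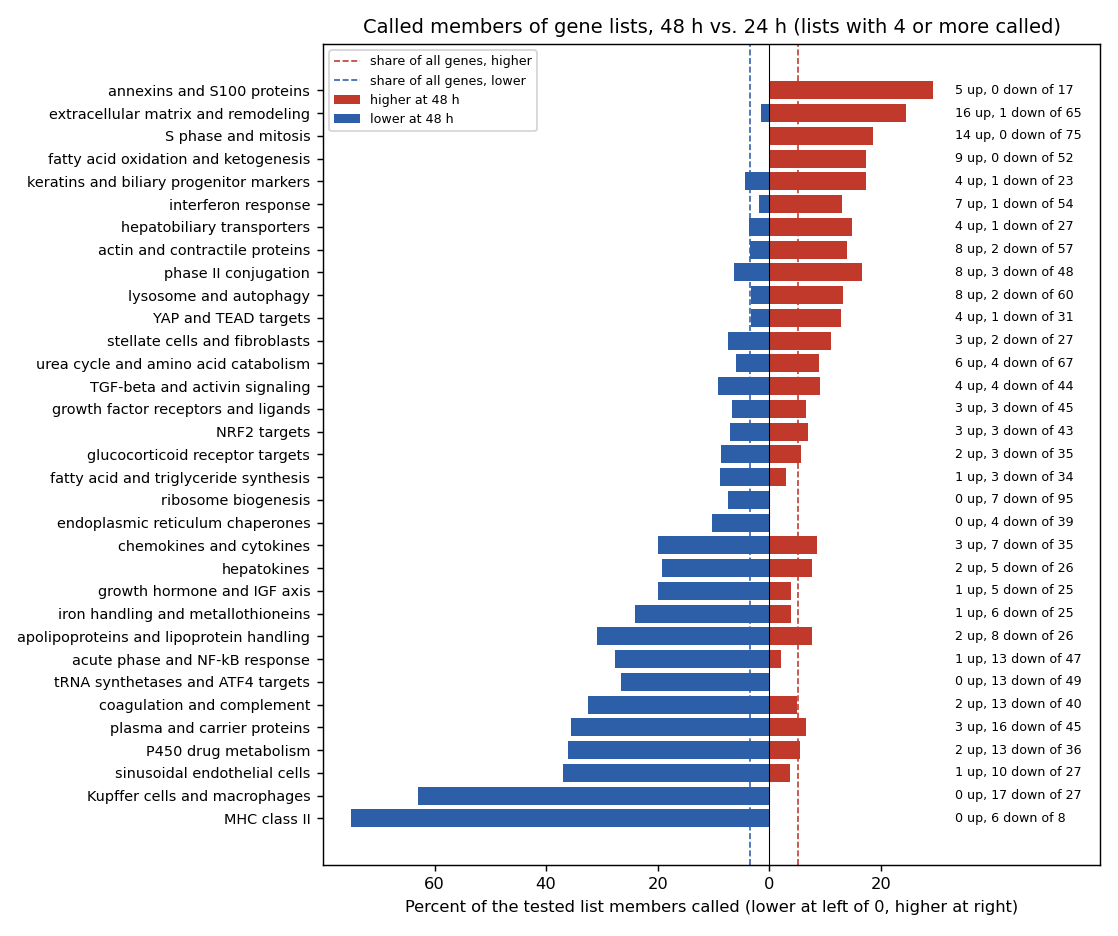
Percent of the tested members of each gene list called higher (red, right of 0) or lower (blue, left of 0) at 48 h, for lists with 4 or more called members, with the numbers at the right. Dashed lines mark the shares over all genes, 5.20% higher and 3.43% lower, and the lists run from annexins and S100 proteins (5 of 17 higher) at the top to MHC class II (6 of 8 lower) at the bottom.

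Lists with few or no calls included the circadian clock, with 0 of 21 called by limma and 5 at an unadjusted p under 0.05, splicing factors with 1 of 54 and translation factors with 1 of 49. Over all 10643 genes tested, 2672 had an unadjusted p under 0.05. Of the 918 called genes, 622 were in none of the 53 lists.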

How the data were processed

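Liver, isolated cells and plated RPH of 3 rats were profiled, with 43 Affymetrix RG230-2 arrays in all. The deposited values are MAS5 signal intensity on a linear scale, 1 column per technical array, which the authors had brought to a common trimmed mean (500 on every array). The submitters' processing notes name MAS5 and affy. The genome build behind the array annotation was not given in the sources used here.

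Intensities were log2-transformed with no offset and averaged over the technical arrays of a sample. Among 31099 probe sets, GEO's platform annotation lists a single gene for 20826, several for 436 and none for 9780, and 57 are controls. RefSeq held 20758 of the single-gene probe sets by Entrez identifier. A probe set was kept if it exceeded the median of its array in 5 or more arrays (10%), and each gene was represented by its brightest kept probe set on average. Of 67 other kept probe sets of 48 called named genes, 63 had the same sign, and 4 (of Aif1, Hnrnpu, Jam2 and Rup2) had the opposite sign without a call.

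RPH at 48 h were compared with RPH at 24 h by limma 3.58.1 in R 4.3.3 on the 9 plated samples (4, 24 and 48 h), with the rat as a block, Benjamini-Hochberg adjustment over all 10643 genes, and 4 residual and 3.01 prior degrees of freedom. The same animal gave a sample to each group. Residuals of the same rat at 24 h and 48 h correlated at 0.59, 0.56 and 0.47. Those of different rats were negatively correlated, which follows on average once the mean of 3 samples is subtracted in each group. The fit was tested on simulated data. Promoters were taken from RefSeq (GRCr8).

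The comparison, the gene lists and the naming rule were chosen with earlier results of these data known, and the lists were written from textbook knowledge. Named genes are the 12 largest rises and falls among called genes of the same direction in all rats and above the median level, up to 4 called members of each list (up to 2 where none was called) and a set of check genes, of which Actb was not among the genes tested. Genes of the promoter windows and other list members outside this rule were chosen after their values were seen. Alternatives covered the scaling, an offset of 32, the filter, the probe set, the technical arrays, the samples in the fit, the block, the prior and the threshold.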

Additional observations from a re-analysis of the deposited data

How the results depend on the processing

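The count of 918 called genes (553 higher, 365 lower at 48 h) stayed within 1.5 times under quantile normalization (953), median centring (852), an offset of 32 (1290), a filter on the late arrays (965), the most variable probe set (789), a trended robust prior (1281), the 24 h and 48 h samples alone (1194) and all 15 samples with the rat as a block (761). It moved further without the replicate block, to 331 (199 higher, 132 lower), and to 456 (267 and 189) with all 15 samples and no replicate block. It was 451 (267 and 184) with no filter, where 14217 genes were tested, and 491 (276 and 215) with technical array 1 only. At an adjusted p under 0.01 it was 242 (135 and 107), under 0.10 it was 1519 (920 and 599), and with a change over 2-fold added it was 407 (252 and 155). Leaving out 1 rat or 1 late sample gave 34 to 510 calls, 11 to 306 of them higher and 23 to 204 lower. Both ends were set by rat 1 left out and by the 48 h sample of rat 3 left out, and fewer samples leave fewer degrees of freedom. The cause of the other moves was not tested.

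Of the 157 called named genes, 84 stayed called with no replicate block, 147 with the late samples alone, 156 with the offset and 151 with median centring. The direction of Rup2 turned with the most variable probe set (0.30), and no other named gene that was called turned. The mean absolute log2 difference of 0.38 became 0.31 with an offset of 32 and 0.47 with no filter, and ranged from 0.37 to 0.39 without 1 rat. Dim genes have the least certain fold changes: 75 called genes had a mean signal under 32 at 1 of the times, of which 63 were called with the offset too.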

Other observations

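Probe sets with no single listed gene also moved. Of 4488 such probe sets kept, 91 were higher and 86 lower at 48 h by limma at an adjusted p under 0.05 over all kept probe sets. They enter no count of genes above.

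Few glycolytic genes were called. Of 27, 2 rose (7.41%), 1 fell (3.70%) and 24 were not called, close to the 5.20% and 3.43% of all genes. Pfkm, the muscle form of phosphofructokinase, had 443, 362 and 341 at 48 h, against 227, 209 and 221 at 24 h (log2 fold change 0.79 ± 0.15, adjusted p = 0.024), whereas Pfkfb3, which makes an activator of that enzyme, had 159, 94.2 and 144 at 48 h, against 303, 139 and 261 at 24 h (log2 fold change -0.78 ± 0.18, adjusted p = 0.0451), with overlapping groups. Lipid synthesis genes fell in 3 of 34 (8.82%) and rose in 1 (2.94%). Mlxipl, the carbohydrate-responsive factor ChREBP, had 579, 611 and 722 at 48 h, against 1124, 1526 and 1421 at 24 h (log2 fold change -1.08 ± 0.16, adjusted p = 0.00962), and Thrsp, a lipogenic nuclear protein, had 6407, 5346 and 5233 at 48 h, against 10245, 13629 and 8509 at 24 h. Both were lower in each rat without overlap.

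Growth factor genes had 3 rises and 3 falls in 45 (6.67% each, against 5.20% and 3.43% of all genes). Fgfr2, a fibroblast growth factor receptor, had 251, 178 and 295 at 48 h, against 775, 586 and 1044 at 24 h (log2 fold change -1.72 ± 0.19, adjusted p = 0.00459), while Fgf1, a ligand of these receptors, had 1328, 1451 and 1644 at 48 h, against 613, 471 and 731 at 24 h (log2 fold change 1.30 ± 0.14, adjusted p = 0.00446). Neither overlapped between the times. Cdh13, an atypical cadherin, had 286, 204 and 277 at 48 h, against 67.2, 47.8 and 63.2 at 24 h (log2 fold change 2.11 ± 0.23, adjusted p = 0.00459), and Jam3, a junctional adhesion molecule, had 419, 789.9 and 333 at 48 h, against 222, 356 and 163 at 24 h with overlapping groups.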
